A study of Mus musculus with 15 samples.

Results

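Cadherins are calcium-dependent adhesion proteins of the cell surface, and their measured transcripts were followed here in sorted MGE-derived cortical interneurons. Members were the protein-coding genes named *Cdh*, *Pcdh*, *Celsr* or *Fat* with a number alone, which takes in the classical and atypical cadherins, the non-clustered (mostly delta) protocadherins, the seven-pass cadherins and the giant cadherins, and leaves out the clustered protocadherins. The rule used names alone and no measured value. It found 35 genes, of which 34 were among the 26835 genes (15160 protein-coding) of the *Lhx6* table and 33 among the 25714 genes (14861 protein-coding) of the *Mtg8* table. Both tables held 32 of them. *Cdh3* and *Cdh19* were in the *Lhx6* table alone and *Cdh1* in the *Mtg8* table alone. The authors removed sex-linked genes, so any sex-linked gene of the family is not among the 35 and its branch is not complete here.

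Each library came from the YFP-positive cortical cells of 1 E14.5 embryo (C57BL6/CBA, a mixed background), isolated by flow sorting for RNA sequencing. All embryos carried the Nkx2-1-Cre driver with the R26R-YFP fl/fl reporter, so that YFP marks cells descended from the *Nkx2-1*-expressing domain of the ventral telencephalon. *Lhx6* controls were Lhx6+/+ (n = 4) and *Lhx6* mutants Lhx6-/- (n = 5). *Mtg8* controls were Mtg8+/+ (n = 3), and the libraries labelled *Mtg8* mutant were Mtg8-/- (n = 3) by their label. The study describes mutants and controls as littermates, and both null alleles are present in every cell of the embryo, not in the YFP-positive lineage alone. *Lhx6* read 5812 to 8441 normalized counts in its controls and 236 to 495 in its mutants. *Runx1t1*, the gene of MTG8, read 7938 to 10265 in *Mtg8* controls and 12250 to 13934 in the libraries labelled *Mtg8* mutant. It was thus higher, not lower, in every library of that label, and these libraries are named by their label throughout. The count covers all exons of *Runx1t1*, so reads from outside the altered part of the gene are included. In the *Lhx6* table *Runx1t1* read 6394 to 8945 in controls and 12227 to 26527 in mutants. There it was called higher (log2 fold change 1.23, adjusted p = 0.0040 by limma). *Lhx6* read 8993.5 to 9489 in *Mtg8* controls and 7055 to 8666 in the labelled mutants, and was not called (limma). Reads counted per library ranged from 12218422 to 22053032. All 15 MGE interneuron marker genes were in both tables, with summed levels of 53445 to 65447 in *Lhx6* controls and 32232 to 53409 in *Lhx6* mutants. Of these genes 5 were called lower in *Lhx6* mutants (limma), *Lhx6* itself among them, and 1 higher. Without *Lhx6* and *Sst* the other 13 summed to 36502 to 46952 and 30711.5 to 51219.

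Classical cadherins join neighbouring cells by binding a cadherin of the same or a related kind across the gap, while catenins tie them to actin. Type I members such as *Cdh2* (N-cadherin) adhere strongly, type II members differ from neuron group to neuron group, and delta protocadherins adhere more weakly and act in sorting, migration and axon growth. Celsr and Fat proteins are very large cadherins that work in planar cell polarity and tissue growth. In migrating neurons of the developing cortex this family is known for guiding movement, the choice of layer and the choice of synaptic partners.

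The clearest difference was in *Pcdh9*. This delta-1 protocadherin was 3.38-fold higher in *Lhx6* mutants by the ratio of group means, and it did not pass the test in the libraries labelled *Mtg8* mutant. Its call in the *Lhx6* mutants was lost when the style or the code of the library names, which nearly follow genotype there, entered the fit. The type II cadherin *Cdh20*, at low level, was nearly lost from the *Lhx6* mutants. *Cdh2*, the most abundant member, did not differ detectably in either comparison. Promoter sequences of the members that were called in the *Lhx6* comparison by either tool are printed here, since LHX6 is a LIM-homeodomain protein that binds DNA. They are the 250 bases before a RefSeq transcription start in GRCm38.p6, written 5′ to 3′ along the gene's strand, with CG pairs in capitals. *Pcdh9* lies on the minus strand at chr14:93890680-93890929 and *Cdh20* on the plus strand at chr1:104768270-104768519.
Pcdh9: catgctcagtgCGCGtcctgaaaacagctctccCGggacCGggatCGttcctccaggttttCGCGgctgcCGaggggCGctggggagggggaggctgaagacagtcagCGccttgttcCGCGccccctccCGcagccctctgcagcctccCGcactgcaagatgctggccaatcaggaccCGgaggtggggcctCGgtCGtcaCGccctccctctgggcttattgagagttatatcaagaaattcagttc
Cdh20: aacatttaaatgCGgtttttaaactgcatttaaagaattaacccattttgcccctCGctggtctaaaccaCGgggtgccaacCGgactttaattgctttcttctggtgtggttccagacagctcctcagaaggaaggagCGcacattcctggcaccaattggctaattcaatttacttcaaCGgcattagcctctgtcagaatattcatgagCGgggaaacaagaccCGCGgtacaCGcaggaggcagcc
The *Pcdh9* stretch holds 18 CG pairs and the *Cdh20* stretch 10. RefSeq windows of 300 bases (250 before to 50 after the start) were matched for 24 of the 35 members, 27 windows in all. Their median was 18 CG pairs, against 7 over all 32851 windows. The homeodomain core TAATTA, which reads the same on both strands, was in 1 of the 27 windows (3.7%), a *Cdh7* start, and in 5.29% of all windows. It was in no *Pcdh9*, *Cdh20*, *Cdh9* or *Cdh15* window, which says only that these letters are not in these windows.

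Levels were first compared in the control libraries, as normalized count per kb of exon so that genes of different length can be set side by side. *Cdh2* was the most abundant member in both control groups. The *Lhx6* controls read 478 ± 37.2 per kb (SD, n = 4) and the 3 *Mtg8* controls 739 ± 16.3 (SD). *Pcdh9* came next in the mean over both control groups, but this rank rests on the *Mtg8* controls, with 275 ± 73.7 per kb there (SD, n = 3) and 105 ± 25.2 in *Lhx6* controls (SD, n = 4). In the *Lhx6* controls *Pcdh9* lay within the spread of *Pcdh8* (126 ± 28.3) and *Celsr2* (110 ± 17.5), so these 3 members have no order there. The next members by mean level were *Cdh13* (93.5 per kb), *Cdh11* (77.7), *Cdh4* (77.3), *Cdh8* (73.4) and *Celsr3* (69.5), and the order of neighbours among them differs between the control groups. Together they cover each main branch of the family except the Fat genes, the highest of which was *Fat3* at 19.6 per kb. *Cdh5*, the cadherin of endothelial cells, was at 1.31 per kb and *Cdh1* (E-cadherin), which marks epithelia, at 0.0777 per kb in the *Mtg8* table, the 1 table that lists it. Each table was normalized on its own, so levels set across tables are descriptions.

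**Figure D1:**
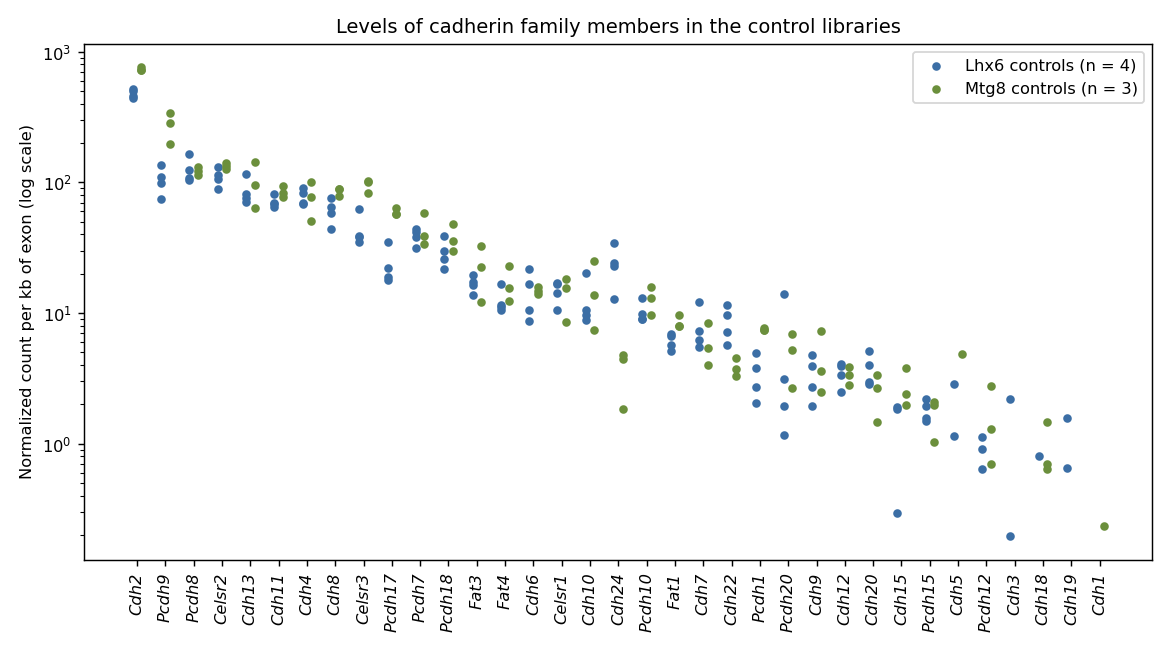
Normalized count per kb of exon (log axis) for each member in the control libraries, 1 point per library, blue for the 4 *Lhx6* controls and green for the 3 *Mtg8* controls; libraries at 0 are not drawn. Members are in order of mean level over the tables that list them (1 table for *Cdh1*, *Cdh3* and *Cdh19*), from *Cdh2* at 609 per kb on the left to *Cdh1* at 0.0777 on the right.

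The *Lhx6* comparison asked how levels in MGE-derived interneurons differ when the *Lhx6* gene is lost. Of 34 members, 27 had a mean of at least 10 normalized counts and were tested with limma on log2(normalized count + 1). At an adjusted p under 0.05 (limma, Benjamini-Hochberg over all 16727 genes tested), 1 member was called, *Pcdh9*, and it was higher. The background share called was 1.71% of all genes, 1.03% higher and 0.682% lower. An unadjusted p under 0.05 was reached by 4 of the 27 (*Pcdh9*, *Cdh15*, *Cdh8* and *Cdh11*), beside 12.7% of all genes, and *Cdh15* is among the 27 only through its higher mutants, so nothing is read from that share. Group means on the log2 scale were higher in mutants for 16 of 27 members, against 46.6% of all genes tested. The median log2 fold change was 0.07 for the members tested and -0.04 for all genes. The minimum mean bears on both values, since it kept *Cdh15* through its mutants and left out *Cdh20* and *Cdh9* through theirs. Nothing is therefore read from either value. In bulk RNA, fewer cells of a type and less RNA per cell cannot be told apart, which holds for each difference below.

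*Pcdh9* is a delta-1 protocadherin of 877 kb on the minus strand (chr14:93013410-93890679), with long introns and 6783 bases of exon. The *Lhx6* controls 1, 2, 3 and 4 held 921, 667, 509 and 747 normalized counts. The mutants 1, 2, 3, 5 and 6 held 2144, 2692, 3640, 2055 and 1480. Every mutant was above every control, and mutant 6 was the lowest of the mutants. Controls averaged 711.3 ± 171 (SD, n = 4) and mutants 2402 ± 815 (SD, n = 5), which gave a log2 fold change of 1.72 (SE 0.24, 95% interval 1.20 to 2.25), with adjusted p = 0.00203 by limma. DESeq2 on the reads recovered from the table gave 1.75 with adjusted p = 2.70e-09. The exact two-sided permutation test gave p = 0.00794, the smallest that 4 against 5 libraries allow.

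The *Pcdh9* difference was read beside other features of the libraries. All 4 controls and mutant 6 have undated library names, while mutants 1, 2, 3 and 5 have dated ones, and the labels do not say what a name stands for. Between the undated libraries alone, mutant 6 exceeded the mean of the 4 controls by 1.09 on the log2 scale, and with name style as a covariate the call was lost (limma, adjusted p = 0.478), an effect that then rests on mutant 6. Controls 1 and 2 and mutant 6 also share a code in their library names, and with that code as a block, a fit chosen after seeing the data that sets mutant 6 against those 2 controls, the value was 0.92 (limma, adjusted p = 0.216). The second feature was the summed level of 10 pyramidal lineage marker genes, all 10 of them measured and none at 0 in every library, which was 19253 to 25397 in controls and 25350 to 36913.5 in mutants. One gene of that list was called (*Bcl11b*, higher by 1.43 on the log2 scale, adjusted p = 0.00353 by limma). It carried the rise of the sum, since the other 9 summed to 13997 to 19869 in controls and 11510 to 15850 in mutants. *Neurod6*, with the highest control level of the 10, stood at 9961 ± 2054 in controls (SD, n = 4) and 7855 ± 969 in mutants (SD, n = 5). Markers of interneurons from the caudal ganglionic eminence, 5 of 6 measured, summed to 1316 to 1648 in controls. In mutants 1, 2, 3, 5 and 6 they summed to 2391, 2325, 1441, 2189 and 2386. Of these genes only *Htr3a* was called, and it was lower (adjusted p = 0.0451 by limma). The part of each of these features in the *Pcdh9* result was not tested. In mutants 1, 2, 3, 5 and 6 the 10 pyramidal markers summed to 36913.5, 31488, 27868, 29466.5 and 25350. Without *Bcl11b* the sums in the same order were 14089, 13637, 11510, 12774 and 15850.

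**Figure D2:**
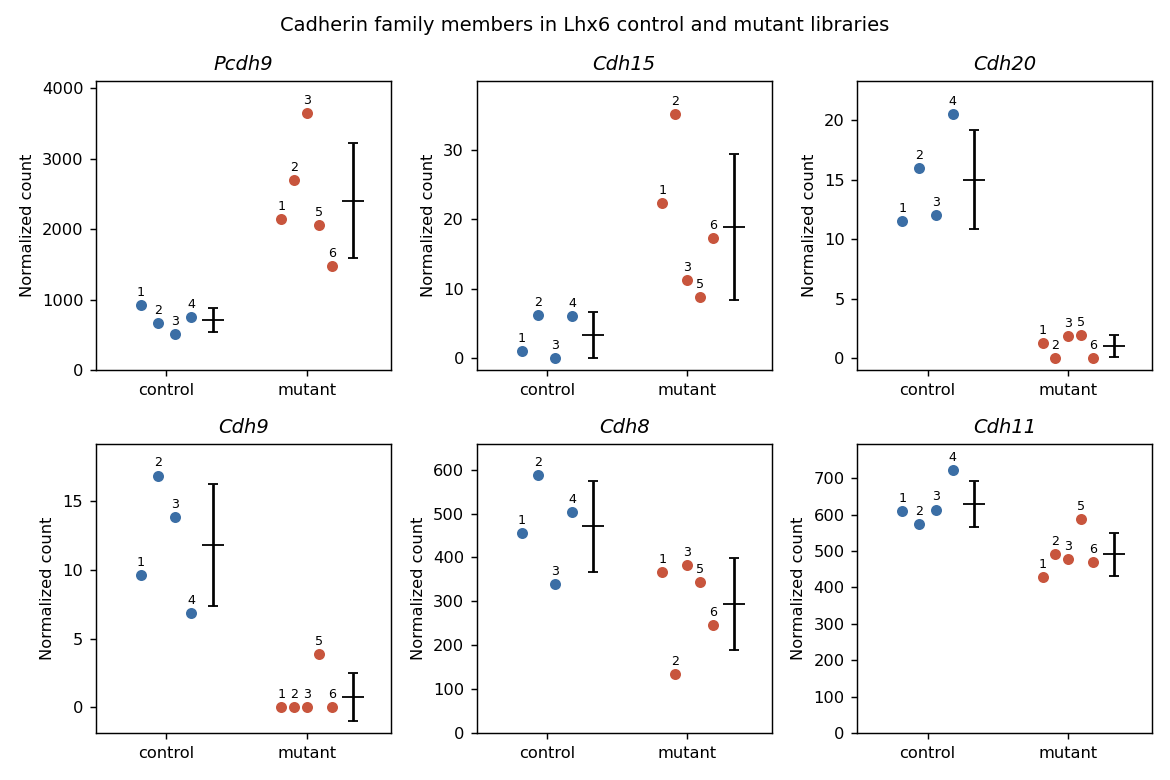
Normalized count (vertical axis, from 0) of 6 members in *Lhx6* controls (blue, n = 4) and mutants (red, n = 5); each point is 1 library with its replicate number, and the bar beside it is the mean with the SD. *Pcdh9* and *Cdh15* are higher in every mutant than in every control, *Cdh20* and *Cdh9* are near 0 in the mutants, and *Cdh8* and *Cdh11* overlap.

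The other delta-1 protocadherins listed, *Pcdh7* and *Pcdh1*, did not pass the test. *Pcdh7* held 413 ± 59.2 normalized counts in controls (SD, n = 4) and 405 ± 82.8 in mutants (SD, n = 5), a log2 fold change of -0.04 with a 95% interval from -0.44 to 0.37. *Pcdh1* was low, at 29.7 ± 11.1 and 23.1 ± 12.8.

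*Cdh20*, a type II cadherin on chr1:104768529-104995481, was near 0 in the *Lhx6* mutants. Controls 1, 2, 3 and 4 held 11.5, 16.0, 11.98 and 20.5 normalized counts, from 12, 18, 13 and 24 reads. Mutants 1, 3 and 5 held 1.24, 1.86 and 1.94, from 1, 2 and 2 reads, and mutants 2 and 6 held 0. The groups did not overlap, and the mutants had 5 reads in all against 67 in the controls, a ratio of 0.0687 after scaling by size factors (95% interval from counting alone, 0.0216 to 0.169). With an overall mean below 10 it was outside the main test. DESeq2 called it, with a log2 fold change of -3.87 (SE 0.97) and adjusted p = 0.00342, where it called 4.53% of all genes. Limma without the filter gave -3.12 with adjusted p = 0.0233, and the exact permutation p was 0.00794.

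*Cdh9*, another type II cadherin (chr15:16728756-16857094) known from specific synapses of the hippocampus, showed values of the same kind and is named after its values were seen. The controls held 9.61, 16.8, 13.8 and 6.84 normalized counts. Of the mutants, number 5 held 3.88 from 4 reads, and the other 4 held 0. The controls had 52 reads in all, and the scaled ratio was 0.0709 (95% interval from counting alone, 0.0186 to 0.193). DESeq2 gave it p = 0.00276 and no adjusted p, limma without the filter gave -3.15 with adjusted p = 0.0327, and the exact permutation p was 0.0159. Among all genes below a mean of 10, 0.791% had mutants wholly below controls. *Cdh20* and *Cdh9* were 2 of the 7 members below it, and the other 5 overlapped between groups. A gene with 0 in any control cannot be wholly lower in mutants, so the 0.791% is no fair measure for these 2. Nothing is read from setting them against it. Within the undated libraries the log2 difference of mutant 6 from the 4 controls was -3.96 for *Cdh20* and -3.61 for *Cdh9*.

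*Cdh8* and *Cdh11*, type II cadherins of far higher level, had lower means in mutants without passing the adjusted test. *Cdh8* held 455, 588, 339 and 503 normalized counts in controls and 366, 133, 384, 345 and 245 in mutants. Mutant 2 was the lowest, and control 3 lay among the mutants. The log2 fold change was -0.74 (SE 0.30), with adjusted p = 0.314 by limma and 0.227 by DESeq2. With 1 library left out it ran from -0.89 to -0.48. *Cdh11* held 610, 575, 614 and 722 in controls and 428, 492, 479, 587 and 470.5 in mutants, a log2 fold change of -0.36 (SE 0.15) with adjusted p = 0.337 by limma. Only mutant 5 of *Cdh11* reached into the control range, above control 2. Of the 8 type II members tested, 4 had higher and 4 lower means, none was called by limma, and the median log2 fold change was -0.18. *Cdh20* and *Cdh9*, below the minimum mean, are not among the 8. The part of the lower MGE interneuron marker sum, given above, in the *Cdh20*, *Cdh9*, *Cdh8* and *Cdh11* values was not tested.

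No type I cadherin was called lower in *Lhx6* mutants by any test used. *Cdh2* held 4185, 3675, 3538 and 4025 normalized counts in controls and 5103, 3926, 4409, 2908 and 3561 in mutants, with controls inside the range of the mutants. Its log2 fold change was 0.02 with a 95% interval from -0.31 to 0.36, and 2 mutants were above every control while mutant 5 was below every control. *Cdh4* (R-cadherin) stood at 567 ± 79.9 (SD, n = 4) and 647 ± 127 (SD, n = 5), a log2 fold change of 0.18 with adjusted p = 0.699 by limma. *Cdh15* (M-cadherin, known from muscle) was very low, with 0.96, 6.20, 0 and 5.99 in controls and 22.3, 35.2, 11.2, 8.72 and 17.3 in mutants. Its groups did not overlap, but it passed the filter only through the mutants, where it is high. The log2 fold change of 2.50 (SE 0.80) had adjusted p = 0.178 by limma and 0.0648 by DESeq2. *Pcdh9* and *Cdh15* were the members above the minimum mean whose groups did not overlap, where 6.22% of all genes did not (3.19% higher and 3.03% lower). Their shared direction is partly set by that minimum, since *Cdh15* passed it through its mutants and *Cdh20* and *Cdh9*, with groups that did not overlap either, fell below it through theirs.

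Among the atypical members, *Cdh13* (T-cadherin, held to the membrane by a lipid anchor in place of a cytoplasmic tail) read 964 ± 227 in controls (SD, n = 4) and 759 ± 195 in mutants (SD, n = 5). Its log2 fold change was -0.36 with adjusted p = 0.511 by limma. The value was -0.20 without control 2. It was 0.045 with the name-style covariate and -0.16 with the library code block, fits that rest on mutant 6. *Pcdh15*, a tip-link protein of hair cells, was low and uneven in the mutants, from 2.78 to 81.7 normalized counts around controls of 35.6 to 52.5.

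The delta-2 protocadherins listed were *Pcdh8*, *Pcdh10*, *Pcdh17* and *Pcdh18*, of a branch that binds the WAVE complex that drives actin growth. Their log2 fold changes ran from -0.20 to 0.34 and none was called. In *Pcdh8* and *Pcdh10*, mutant 1 stood apart with 996 and 459 normalized counts, while the other mutants read 328 to 483 and 136 to 153. Controls read 475 to 754 for *Pcdh8* and 143 to 205 for *Pcdh10*. Mutant 1 held the highest value of the table for 12 of the 34 members, *Cdh2*, *Celsr2*, *Celsr3*, *Fat4* and *Pcdh17* among them. How often this library was the highest over all genes was not counted, so the 12 are not read as a trait of the family. *Pcdh17* held 305 ± 103 and 393 ± 132, and *Pcdh18* 156 ± 38.7 and 144 ± 66.9 (SD, n = 4 and 5).

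The 3 Celsr genes and the 3 Fat genes measured all had higher means in mutants, and none passed the adjusted test. Their log2 fold changes ran from 0.28 to 0.38 and from 0.08 to 0.64. Within the undated libraries the log2 differences of mutant 6 from the 4 controls were 0.95, -0.11 and -0.37 for *Celsr1*, *Celsr2* and *Celsr3*. For *Fat1*, *Fat3* and *Fat4* they were 1.04, 0.05 and 0.13. *Celsr2* held 1029, 1320, 1514 and 1221 normalized counts in controls and 2100, 1664, 1535, 1702 and 1164 in mutants, so 4 of 5 mutants were above every control. Its adjusted p was 0.434 by limma. *Fat1* and *Fat4*, named after their values were seen, had log2 fold changes of 0.64 and 0.62 with adjusted p = 0.440 and 0.460 by limma. For *Fat1* the highest value was 299 in mutant 3 and for *Fat4* it was 672 in mutant 1, against control ranges of 79.8 to 109 and 182 to 286. Without mutant 3 the *Fat1* value was 0.40, and without mutant 1 the *Fat4* value was 0.36. With the library code as a block, which rests on controls 1 and 2 and mutant 6, the values were 1.21 and 0.25. Radial glia marker genes (8 of 8 measured, none at 0 in every library) summed to 8909 to 10935 in controls and 8077 to 15377 in mutants, and mutants 1 and 6 had the 2 largest sums. Mutant 3, the highest for *Fat1*, had the lowest radial glia sum, and the highest sums of the table for meningeal and fibroblast (934), microglial (217) and oligodendrocyte precursor markers (325). The part of these markers in the Fat and Celsr values was not tested.

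**Figure D3:**
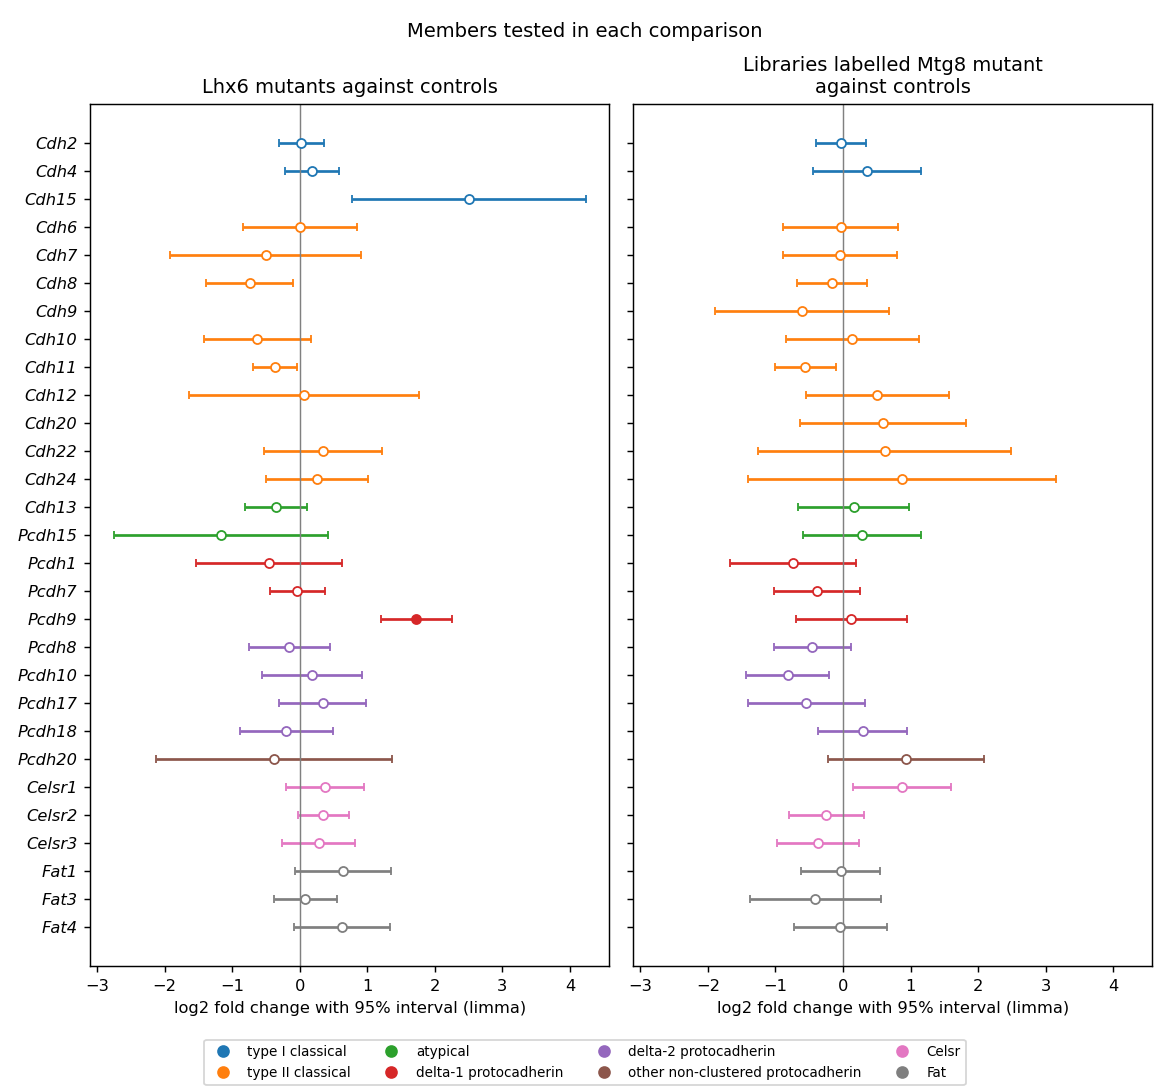
Log2 fold change with 95% interval (limma, horizontal axis, the same scale in both panels) for each member tested in *Lhx6* mutants (left) and in libraries labelled *Mtg8* mutant (right), coloured by branch of the family. The filled point is the 1 member called, *Pcdh9* at 1.72 in the *Lhx6* comparison; all other points are open.

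The *Mtg8* comparison asked the same for MTG8, a corepressor that the study examined as a partner of LHX6. Of 33 members, 28 were tested, and 0 were called by limma at an adjusted p under 0.05, beside 0.0% of all 16132 genes. DESeq2 called 0 members and 0.152% of all genes. An unadjusted p under 0.05 was reached by 3 members (*Pcdh10*, *Cdh11* and *Celsr1*), beside 5.49% of all genes, and the groups of these 3 did not overlap, beside 10.2% of all genes (5.52% lower and 4.68% higher). Of the 5 members below a mean of 10, all overlapped between groups, and 2.93% of all genes below that mean were wholly lower in labelled mutants. With 3 libraries against 3, an exact permutation test cannot give a p below 0.1. The median log2 fold change was -0.03 over the members tested and -0.01 over all genes, and 12 of 28 members had higher means in the labelled mutants, against 48.5% of genes.

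*Pcdh10* (OL-protocadherin, a delta-2 member on chr3:45378398-45435623) had the lowest p of the family there. Controls 1, 2 and 4 held 208, 251 and 155 normalized counts and labelled mutants 2, 3 and 4 held 122, 127 and 93.3. All 3 labelled mutants were below all 3 controls. Within dated libraries (2 controls and 1 labelled mutant) the log2 difference was -0.89 and within undated ones (1 control and 2 labelled mutants) -0.50, so that each rests on an arm of 1 library here and for the genes below. The log2 fold change was -0.82 (SE 0.28) with an unadjusted p of 0.0127 and adjusted p = 0.859 by limma. The other delta-2 members were not separated between groups, and their log2 fold changes were -0.54 for *Pcdh17*, -0.45 for *Pcdh8* and 0.29 for *Pcdh18*. With 1 library left out the *Pcdh8* value ran from -0.73 to -0.23.

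*Cdh11* (chr8:102632095-102785642), a type II cadherin, was lower in the labelled mutants as well, with 839, 737 and 685 in controls and 547, 443 and 549 in labelled mutants. Its log2 fold change was -0.56 (SE 0.21), with adjusted p = 0.859 by limma, and within dated and undated libraries the log2 differences were -0.52 and -0.47. The summed level of 15 MGE interneuron markers, 15 of them measured and none at 0 in every library, was 83242 to 88818 in *Mtg8* controls and 52865 to 68550 in the labelled mutants, and without *Lhx6* and *Sst* it was 59445 to 60828 and 36683 to 54482, again wholly lower. Its part in the *Pcdh10* and *Cdh11* differences was not tested. In both comparisons its mean was thus lower in the mutants (log2 fold changes of -0.36 and -0.56), and in neither did it pass the adjusted test. The groups of embryos in the 2 tables are separate, and the difference between the 2 effects was not tested.

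*Celsr1* (chr15:85898929-86033777), a core planar polarity gene known from dividing progenitors, held 171, 202 and 93.9 in controls and 389, 231 and 224 in labelled mutants. The log2 fold change was 0.87 (SE 0.33) with adjusted p = 0.859 by limma. With 1 library left out it ran from 0.55 to 1.09. The largest value was that of labelled mutant 2, which also had the largest pyramidal lineage marker sum of the table (28039), and the log2 difference was 1.06 within dated and 1.27 within undated libraries. Radial glia markers, 8 of 8 measured, summed to 6018 to 7406 in controls and 7859 to 12230 in labelled mutants, with the largest sum in labelled mutant 3. The part of either marker list in the *Celsr1* difference was not tested. *Celsr2* and *Celsr3* had log2 fold changes of -0.25 and -0.37, and their lowest values, 827 and 541, were both in labelled mutant 3.

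*Pcdh9*, higher in *Lhx6* mutants, held 2317, 1945 and 1327 in *Mtg8* controls and 3574, 984 and 2179 in the labelled mutants. The labelled mutants thus held both the highest and the lowest value, the highest in labelled mutant 2, the library with the pyramidal lineage marker sum of 28039. The part of those markers was not tested. The log2 fold change was 0.12 with a 95% interval from -0.70 to 0.94 and adjusted p = 0.973 by limma. The *Lhx6* value of 1.72 lies outside this interval, while the 0.92 that the library code block gave there lies inside it. No test was run of one effect against the other. With 1 library left out the value ran from -0.31 (without labelled mutant 2) to 0.62 (without labelled mutant 3), and it was -0.11 without control 4. It was 0.80 with the replicate number as a block and 0.75 with the library code as a block, and was called in none of these fits (limma). On a scale common to both tables, CPM (recovered reads scaled to a common library total), *Pcdh9* was at 33.7 to 60.9 in *Lhx6* controls, 97.8 to 224 in *Lhx6* mutants, 69.0 to 128 in *Mtg8* controls and 54.7 to 193 in the labelled mutants. The *Mtg8* controls lay wholly above the *Lhx6* controls and in part within the range of the *Lhx6* mutants.

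**Figure D4:**
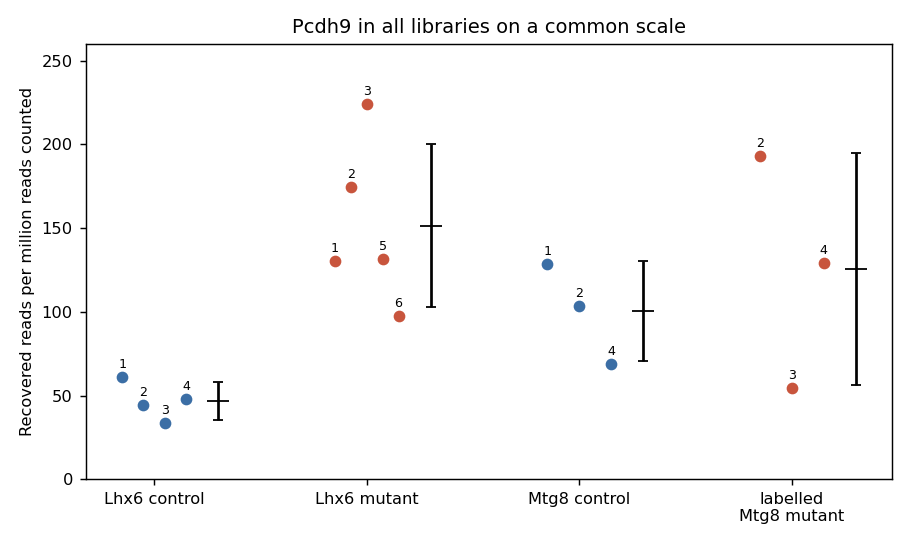
Recovered *Pcdh9* reads as CPM (vertical axis, from 0) in the 4 groups; each point is 1 library with its replicate number, blue for controls and red for mutants, and the bar is the mean with the SD. *Lhx6* controls sit between 33.7 and 60.9 and *Lhx6* mutants between 97.8 and 224, while *Mtg8* controls sit between 69.0 and 128 and the labelled mutants between 54.7 and 193.

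*Cdh20* and *Cdh9*, near 0 in *Lhx6* mutants, were detected in all 6 libraries of the *Mtg8* table. *Cdh20* held 13.4, 10.7 and 5.87 normalized counts in *Mtg8* controls and 9.06, 21.1 and 16.8 in labelled mutants, a log2 fold change of 0.59 (95% interval -0.64 to 1.83). *Cdh9* held 25.7, 12.8 and 8.80 and then 7.93, 6.43 and 14.5, a log2 fold change of -0.60 (-1.89 to 0.68). Both groups overlapped in each gene, with adjusted p = 0.900 and 0.901 by limma. With 1 library left out, the log2 fold changes ran from 0.29 to 0.92 for *Cdh20* and from -0.93 to -0.20 for *Cdh9*.

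*Cdh2* read 5885, 5890 and 6115 in controls and 5982, 5078 and 6524 in labelled mutants, a log2 fold change of -0.03 with a 95% interval from -0.40 to 0.33. *Cdh8* stood at 665 ± 45.4 and 609 ± 169 (SD, n = 3 each), with a log2 fold change of -0.16. Labelled mutant 2 held the highest value of the table for 15 of the 33 members. Among them were *Pcdh9*, *Celsr1*, *Cdh8*, *Cdh4* (1291), *Cdh13* (2322), *Cdh10* (280), *Cdh6* (267), *Cdh12* (60.0) and *Pcdh20* (110). How often this library was the highest over all genes was not counted, so the 15 are not read as a trait of the family. In the same library the 10 pyramidal lineage markers summed to 28039, against 14167 to 14298 in the other labelled mutants and 11998 to 20432 in controls, and without *Bcl11b* to 22681.5 against 8777 to 11676 and 5718 to 13918. Their part in the values of these 15 members was not tested. Without that library the log2 fold changes of *Cdh4* and *Cdh13* were -0.10 and -0.32, in place of 0.35 and 0.16. Within dated libraries, which set labelled mutant 2 against controls 1 and 2, the log2 differences were 1.01 and 0.82. Within undated ones they were 0.42 and 0.27. *Cdh24* read 196 in labelled mutant 4 and at most 16.8 in each other library.

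**Figure D5:**
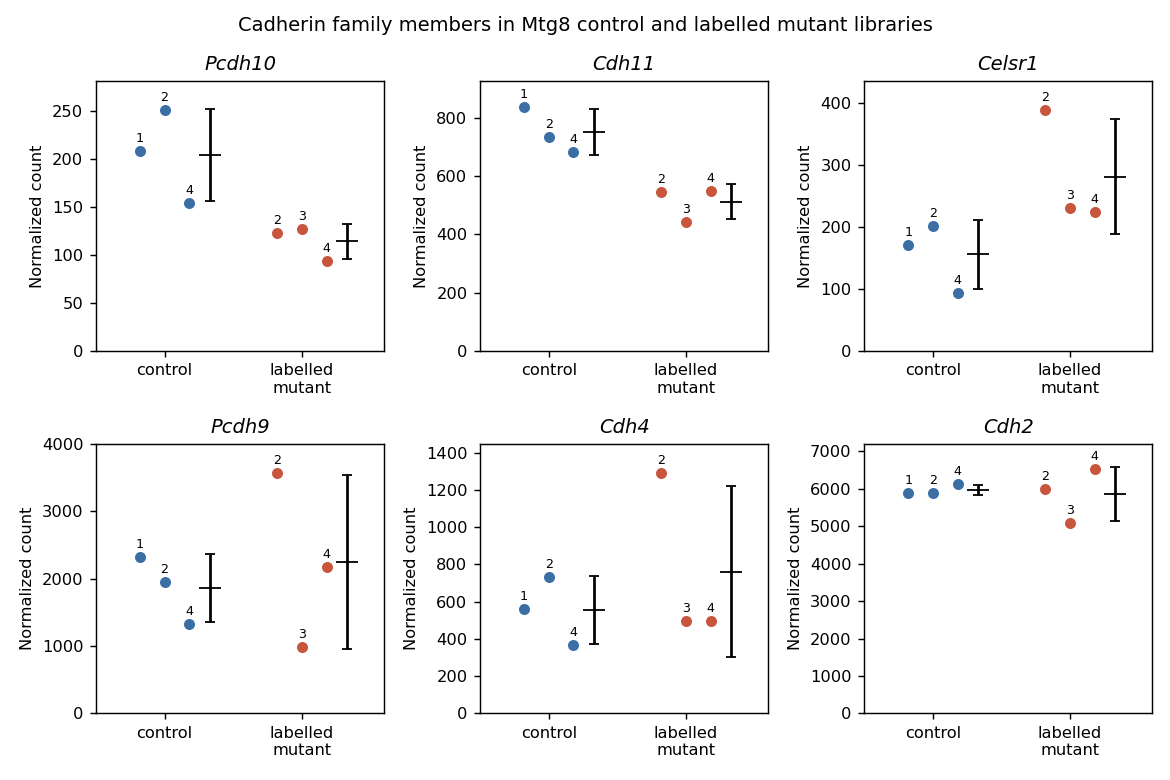
Normalized count (vertical axis, from 0) of 6 members in *Mtg8* controls (blue, n = 3) and libraries labelled *Mtg8* mutant (red, n = 3); each point is 1 library with its replicate number, and the bar is the mean with the SD. *Pcdh10* and *Cdh11* are lower and *Celsr1* higher in every labelled mutant, without passing the adjusted test, and *Pcdh9*, *Cdh4* and *Cdh2* overlap.

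The proteins that cadherins work with were followed as a list of 43 genes, which took in catenins, planar polarity genes, the WAVE complex, nectins, repressors of cadherin genes and the sheddase ADAM10. Of the 36 tested in each table, limma called 0 in *Lhx6* mutants, where 5 had an unadjusted p under 0.05 beside 12.7% of all genes, and 0 in the libraries labelled *Mtg8* mutant, where 0 did beside 5.49% of all genes. DESeq2 called 2 in *Lhx6* mutants, beside 4.53% of all genes, and 0 in the labelled *Mtg8* mutants, beside 0.152%. *Nectin1*, an adhesion protein of the immunoglobulin class, held 179 ± 68.8 in *Lhx6* controls (SD, n = 4) and 467 ± 228 in mutants (SD, n = 5), a log2 fold change of 1.33 with adjusted p = 0.0872 by limma and 0.00600 by DESeq2. *Cyfip1*, a WAVE complex subunit, held 1062 ± 142 and 751 ± 113, a log2 fold change of -0.50 with adjusted p = 0.166 by limma and 0.0421 by DESeq2. The other 3 with an unadjusted p under 0.05 were the polarity genes *Prickle1* (1.11) and *Fzd3* (0.33) and the repressor *Zeb2* (0.59), each with a higher mean in mutants. *Ctnnb1*, β-catenin, had a log2 fold change of 0.18 and *Adam10* one of 0.10. Of the partner genes tested, *Cyfip1* and *Rap1a* (log2 fold change -0.17) were wholly lower in *Lhx6* mutants, where 6.22% of all genes did not overlap. In the libraries labelled *Mtg8* mutant, *Jup* and *Dvl3* were wholly higher and *Brk1* wholly lower, beside 10.2% of all genes.

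Several members share a chromosome. *Pcdh9* lies on chromosome 14 with *Pcdh8*, *Pcdh17*, *Pcdh20* and *Cdh24*, whose log2 fold changes in *Lhx6* mutants were -0.15, 0.34, -0.38 and 0.26. *Cdh9* shares chromosome 15 with *Cdh6*, *Cdh10*, *Cdh12*, *Celsr1* and *Cdh18*, of which the first 4, those tested, were at 0.01, -0.63, 0.07 and 0.38, with overlapping groups. *Cdh20* shares chromosome 1 with *Cdh7* (-0.51, overlapping) and *Cdh19*, which was at 0 in 6 of 9 libraries. Exons of *Pcdh8*, *Pcdh10*, *Pcdh7*, *Cdh8*, *Fat1* and *Fat4* overlap exons of a gene on the opposite strand, and since the strand setting of the counting is not given in the sources used here, reads of the 2 genes cannot be told apart there. *Pcdh9*, *Cdh20* and *Cdh9* have no such overlap.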

How the data were processed

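Per the labels and the study's methods, YFP-positive cortical cells were sorted, RNA was amplified with a low-input kit and sequenced as single 75-base reads. The authors used fastp 0.20.1 for trimming, STAR 2.7b for alignment to GRCm38.p6 and featureCounts 1.6.4 for counts per gene, and removed sex-linked genes. The deposited signal of each gene and library is its read count divided by DESeq2's size factor, computed separately for each of 2 tables, so tests were made within a table. The tables also hold the authors' own fold changes and p-values, which were not used. All values were whole multiples of 1 read (tolerance 0.01), and reads were recovered from them. Reads carry no molecular identifiers, so intervals from counts cover counting error only.

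Groups and replicate numbers came from sample titles. The study used DESeq2. Because the deposited values are normalized, log2(normalized count + 1) was tested here with limma 3.58.1 in R 4.3.3, using its trend of variance with mean and leaving out genes averaging below 10, two-sided, Benjamini-Hochberg adjustment over all genes, threshold 0.05. Fold changes of low genes are understated on this scale. DESeq2 1.42.0 and edgeR 4.0.16 on recovered reads were alternatives, with other pseudocounts, filters and scalings, a replicate block, a name-style covariate, each library left out and, chosen after seeing the data, a block on the code in the library names. The fit was tested on simulated counts, but the outcome is not given here and nothing is read from it. Named genes were members called by limma or DESeq2, those with an unadjusted p under 0.05 and separate groups, the 8 highest per kb in controls, and the targeted genes. The members and the lists were chosen with earlier results of these data known. The promoters come from RefSeq (GRCm38.p6).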

Additional observations from a re-analysis of the deposited data

Results flagged for a closer look

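In 6 of the 54 groups of 4 or 5 libraries examined, 1 library lay far from the others for a member, judged by its gap to the nearest library as a share of the group's whole range. Chance flags about 1 in 20 groups if values are normally distributed, which was not checked for these counts. All 6 flagged values were high ones, and nothing is read from the number flagged. *Pcdh10* read 459 normalized counts in *Lhx6* mutant 1, with the other mutants at 136 to 153. *Pcdh8* read 996 in the same library, with the others at 328 to 483. Among *Lhx6* controls, *Cdh10* read 202 in control 2 (others 89.4 to 106) and *Pcdh20* read 76.2 there (others 6.45 to 17.1). Control 3 read 752 for *Celsr3* (others 423 to 471) and 286 for *Fat4* (others 182 to 198).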

How the results depend on the processing

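Of 28 single-gene results, 12 kept their direction and their side of the threshold under each alternative that gave a value, up to 21 for *Lhx6* mutants and 18 for the labelled *Mtg8* mutants, and 13 changed sign under at least 1. *Pcdh9* in *Lhx6* mutants stayed called under 19 of its 21, with leave-one-out values from 1.56 to 1.88. With the name-style covariate 0 members were called higher (*Pcdh9* 1.09, limma adjusted p = 0.478), a fit that rests on mutant 6, and also 0 with the library code block described last (0.92, adjusted p = 0.216). Members called lower in *Lhx6* mutants numbered 2 with no filter (*Cdh20*, *Cdh9*) and 1 with DESeq2 (*Cdh20*), where the main test left both genes out. The share of all genes called with no filter was not counted, so nothing is read from that number of members. DESeq2 called 4.53% of all genes, either direction. Partner genes called in *Lhx6* mutants numbered 2 with DESeq2 (*Nectin1*, *Cyfip1*) and 0 to 2 with 1 library left out, the 2 being *Nectin1* and *Zeb2* without mutant 6.

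Signs turned only for log2 fold changes that were not called. In *Lhx6* mutants, equal totals gave -0.032 for *Cdh2*. The name-style covariate gave 0.045 for *Cdh13*, -0.11 for *Cdh2*, -0.11 for *Celsr2* and -0.23 for *Pcdh10*. Leaving out 1 library gave -0.072 to 0.13 for *Cdh2* and -0.16 to 0.29 for *Pcdh10*. In the labelled *Mtg8* mutants, equal totals gave 0.039 for *Cdh2*, and leaving out 1 library gave -0.11 to 0.067 for *Cdh2*, -0.36 to 0.042 for *Cdh8*, -0.41 to 0.077 for *Celsr2*, -0.32 to 0.45 for *Cdh13*, -0.31 to 0.62 for *Pcdh9* and -0.10 to 0.59 for *Cdh4*. The cause was not tested.

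Replicate numbers were not treated as pairs in the main test. Correlations of deviations between same-numbered libraries were -0.15, 0.00 and 0.07 for the *Lhx6* groups and 0.14 and 0.16 for the *Mtg8* groups. Those of the other control-mutant pairs averaged 0.004 and -0.043. The labels do not say what a number marks, and 2 pairs cannot decide whether the *Mtg8* libraries are paired. With the replicate block, 1 member was called higher and 0 lower in *Lhx6* mutants (*Pcdh9* 2.02) and 0 in the labelled *Mtg8* mutants. The block gave 0.13 for *Pcdh8* in *Lhx6* mutants, and in the labelled *Mtg8* mutants 0.058 for *Cdh2*, 0.072 for *Cdh8*, 0.018 for *Cdh9* (-0.60 without the block) and 0.082 for *Celsr2*, while *Pcdh9* kept its sign at 0.80. Library names share codes within each table, whose meaning the labels do not give, and 1 shared code in each table holds both genotypes (*Lhx6* controls 1 and 2 with mutant 6, *Mtg8* controls 1 and 2 with labelled mutant 2). A block on these codes, chosen after seeing the data, therefore rests on those libraries. It gave -0.14 for *Cdh2*, -0.0015 for *Celsr2* and -0.069 for *Pcdh10* in *Lhx6* mutants, and 0.023 for *Cdh2*, -0.37 for *Cdh20*, 0.18 for *Cdh8* and 0.038 for *Celsr2* in the labelled *Mtg8* mutants.

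Small numbers of embryos limit the precision. *Cdh20* and *Cdh9* rest on 67 and 52 control reads, so their ratios are known only within wide intervals.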

Other observations

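The control groups of the 2 tables were set side by side as CPM (recovered reads scaled to a common library total), with no test, since each table was normalized on its own. Of the 26 members tested in both comparisons, 5 (19.2%, against 16.7% of 15629 genes) were higher in every *Mtg8* control than in every *Lhx6* control. These were *Pcdh9*, *Celsr3*, *Cdh2*, *Pcdh17* and *Pcdh1*. Another 3 were lower throughout (*Pcdh8*, *Cdh22* and *Cdh24*; 11.5%, against 30.4% of genes). *Celsr3*, the seven-pass cadherin of axon tracts, was at 28.3 to 49.7 CPM in *Lhx6* controls and 52.3 to 68.8 in *Mtg8* controls. *Pcdh17* was at 15.1 to 30.1 and 38.9 to 46.1. *Cdh24* was at 2.97 to 7.85 and 0.341 to 0.929. *Cdh20*, not among the 26 since it fell below the minimum mean in the *Lhx6* table, was at 0.763 to 1.33 and 0.305 to 0.74.

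*Cdh3* (P-cadherin) read 63.3 normalized counts in *Lhx6* mutant 3 and at most 9.61 in the other libraries of that table. The same library had the largest sum of 5 meningeal and fibroblast markers, 934, while control 3, with a sum of 632, had 0 for *Cdh3*. The part of these markers in the *Cdh3* value was not tested. *Cdh19* read 34.25 in *Lhx6* mutant 2 and at most 6.73 elsewhere.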
